A study of Mus musculus with 7 samples.

Results

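Sebaceous gland genes were followed in Iqgap1 knockout and wild-type mouse tissue through 8 named genes (Scd1, Scd3, Mc5r, Awat1, Awat2, Soat1, Elovl3 and Fa2h) and, for each, the probe set that names it alone (the brightest on average where there were several). Of the 8 names, 7 were measured among 19937 genes tested, and Soat1 was not analysed here because no probe set named it. Each of the 7 had 1 such probe set. RNA came from 7 arrays (Mouse Gene 1.0 ST, Affymetrix) in 4 groups. Iqgap1 knockout mice at day 6 gave 2 arrays, wild-type mice at day 6 gave 2, knockout mice at day 0 gave 2 and wild-type mice at day 0 gave 1. All mice were of a mixed C57BL/6 and 129 strain background, and the agent on every array's label, day 0 included, was topical 4OHT, an active tamoxifen metabolite commonly used to switch on tamoxifen-dependent proteins. The labels named no inducible protein, no age and no tissue beyond mouse tissue, and did not say whether replicates were separate mice. The p-values therefore reflect only how far these arrays scatter, and that scatter may be technical. All values are log2 expression values made with RMA, so 1 unit is a 2-fold change.

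Sebaceous glands are lobes attached to hair follicles whose cells, the sebocytes, fill with lipid and burst to release sebum, the oily coat of skin and hair. Mouse sebum is rich in wax esters and sterol esters. Its synthesis needs fatty acids that are lengthened by elongases, given a double bond by desaturases and in part hydroxylated, and fatty alcohols to which acyltransferases join them. In these tissue samples fewer sebocytes and less RNA per sebocyte cannot be told apart.

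The tissue carried keratinocyte RNA on every array, with Krt14, a basal keratin, between 11.71 and 12.89 on the log2 scale. Iqgap1 itself was lower in every knockout array (8.58 to 9.02) than in every wild-type array (9.94 to 10.59). Arrays of a group correlated at Pearson r of 0.979 to 0.991 over the genes (genes being no replicates), and arrays of different groups at 0.910 to 0.992. Wild-type replicate 1 of day 6 and of day 0 had Xist signal, the RNA of the inactive X chromosome (10.30 and 11.15, against 3.55 to 4.03 on the other 5 arrays), and lacked signal of the Y-linked gene Eif2s3y. The wild-type day 0 array also stood apart in hair follicle markers: the mean of 10 such genes was 10.78 there and 5.12 to 6.42 on the other 6 arrays.

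Promoters are shown for the members that RefSeq's table held (build GRCm38.p6, 250 bases before to 50 after the start), to give the regulatory context of 3 genes whose levels moved together across arrays: the desaturase gene Scd3 on chromosome 19 (chr19:44203038-44203337, plus strand), the wax synthase gene Awat1 on chromosome X (chrX:100571997-100572296, plus strand), and both listed starts of Awat2 on chromosome X (chrX:100442668-100442967 and chrX:100412538-100412837, minus strand). Capitals mark the letters CCAAT or their reverse complement.
Scd3: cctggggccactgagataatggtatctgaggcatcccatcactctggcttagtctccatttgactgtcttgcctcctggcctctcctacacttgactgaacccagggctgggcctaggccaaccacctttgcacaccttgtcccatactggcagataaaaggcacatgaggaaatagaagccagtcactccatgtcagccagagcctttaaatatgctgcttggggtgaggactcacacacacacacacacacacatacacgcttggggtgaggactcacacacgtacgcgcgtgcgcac
Awat1: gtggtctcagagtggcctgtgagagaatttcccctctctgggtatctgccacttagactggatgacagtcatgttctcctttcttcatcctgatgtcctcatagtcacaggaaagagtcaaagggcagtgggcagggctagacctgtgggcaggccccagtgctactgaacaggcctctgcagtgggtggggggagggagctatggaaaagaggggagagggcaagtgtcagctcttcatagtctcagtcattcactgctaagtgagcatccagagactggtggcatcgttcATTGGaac
Awat2, start upstream: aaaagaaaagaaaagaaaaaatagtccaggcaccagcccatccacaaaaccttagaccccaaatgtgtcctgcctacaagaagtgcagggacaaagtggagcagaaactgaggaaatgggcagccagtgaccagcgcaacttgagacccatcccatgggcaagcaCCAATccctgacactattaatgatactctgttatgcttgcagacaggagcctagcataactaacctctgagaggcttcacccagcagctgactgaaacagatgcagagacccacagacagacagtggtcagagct
Awat2, start downstream: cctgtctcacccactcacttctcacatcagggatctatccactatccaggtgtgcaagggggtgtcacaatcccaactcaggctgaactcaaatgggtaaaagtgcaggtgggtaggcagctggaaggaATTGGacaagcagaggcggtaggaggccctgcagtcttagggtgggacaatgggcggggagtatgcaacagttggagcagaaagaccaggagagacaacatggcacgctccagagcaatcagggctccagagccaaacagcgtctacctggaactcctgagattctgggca
Short patterns were searched on both strands: the CCAAT box, the TATAAA box, the nuclear receptor element AGGTCA and a direct repeat of that element with 1 base between. CCAAT occurred 1 time in the Awat1 window and 1 time in each Awat2 window, and 0 times in that of Scd3, while 37.4% of all 32851 promoter windows held it. The Awat1 match (bases 293 to 297, reverse strand) lay after the start, and the Awat2 matches lay before it. The other patterns had 0 matches in the 4 windows, against 13.6% of all windows for the TATAAA box, 16.3% for the receptor element and 0.0396% for its repeat. The repeat contains the single element, so these last counts overlap. A match, or its absence from this window, describes letters only.

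The 7 genes were lower at day 6 than at day 0 in fitted mean, and 3 of them passed the test: Mc5r, Scd3 and Awat2. At day 6 the replicates of a genotype differed widely. Elovl3, Awat1 and Fa2h differed from their genotype's day 0 mean by -1.05 to 0.99 log2 units in replicate 2 and by -6.62 to -3.04 in replicate 1, so array values are given first for every gene.

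Elovl3, an elongase of very long saturated and monounsaturated fatty acids, had 3.94 and 10.30 in knockout day 6 arrays (replicates 1 and 2) and 4.80 and 10.17 in wild-type day 6 arrays. Its day 0 values were 10.57 and 10.55 in knockout and 10.39 in wild type. All day 6 values lay below all day 0 values, but replicate 2 lay just under them, with differences from the genotype's day 0 mean of -0.25 in knockout and -0.22 in wild type. In replicate 1 the difference was -6.62 in knockout and -5.59 in wild type. The knockout value of 3.94 was within the range of Xist and Eif2s3y on arrays without their signal (3.55 to 4.03), so its fold has no exact size. Over both genotypes the fitted difference was -3.22 ± 1.75 (SE), which did not pass (limma adjusted p = 0.304).

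Scd1, the stearoyl-CoA desaturase whose loss leaves mice with shrunken sebaceous glands, had 11.39 and 11.87 in knockout at day 6 and 10.98 and 11.94 in wild type at day 6. The day 0 arrays had 12.61 and 12.42 in knockout and 11.88 in wild type. Day 6 and day 0 overlapped, since wild-type replicate 2 of day 6 lay above the wild-type day 0 array. The difference over both genotypes was -0.70 ± 0.27 (SE; limma adjusted p = 0.153), the smallest of the members.

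Scd3, a desaturase gene of the same family known in mouse skin from sebocytes, had 6.02 and 7.64 in knockout at day 6 and 5.77 and 8.11 in wild type at day 6. At day 0 it had 11.32 and 11.29 in knockout and 8.86 in wild type. No day 6 array reached a day 0 array. Expression was 10.9-fold lower at day 6 over both genotypes, a log2 difference of -3.45 ± 0.77 (SE), and this passed the test (limma adjusted p = 0.0351). The Scd genes are closely related neighbours whose probes may share signal, so the values of Scd1, Scd2 and Scd3 are uncertain to that extent.

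Fa2h, which hydroxylates fatty acids for sphingolipids in sebocytes and in myelinating cells, had 6.41 and 10.31 in knockout at day 6 and 6.08 and 10.11 in wild type at day 6. At day 0 it had 11.38 and 11.16 in knockout and 9.12 in wild type. The wild-type day 6 arrays lay on either side of the wild-type day 0 array, with differences of 0.99 for replicate 2 and -3.04 for replicate 1. The difference over both genotypes was -2.16 ± 1.23 (SE; limma adjusted p = 0.329).

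Awat1, an acyltransferase that makes wax esters from fatty alcohols, had 5.17 and 9.94 in knockout at day 6 and 5.38 and 10.08 in wild type at day 6. At day 0 it had 10.82 and 11.16 in knockout and 9.35 in wild type. As with Fa2h, replicate 2 of wild type at day 6 exceeded the day 0 array of that genotype, by 0.74, and replicate 1 did not. The difference over both genotypes was -2.71 ± 1.45 (SE; limma adjusted p = 0.297).

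Awat2, the related wax ester synthase, had 4.79 and 6.73 in knockout at day 6 and 4.98 and 6.66 in wild type at day 6. At day 0 it had 7.95 and 8.52 in knockout and 7.85 in wild type. All day 6 arrays lay below all day 0 arrays. The gene was 4.91-fold lower over both genotypes (-2.30 ± 0.56, SE; limma adjusted p = 0.0465).

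Mc5r, a melanocortin receptor that promotes sebum secretion, had 4.97 and 6.74 in knockout at day 6 and 5.34 and 5.95 in wild type at day 6. The day 0 values were 9.29 and 9.15 in knockout and 9.96 in wild type. Every day 6 array lay more than 2 log2 units below every day 0 array. Mc5r was 13.4-fold lower over both genotypes (-3.75 ± 0.44, SE), with the smallest p of the members (limma adjusted p = 0.00491).

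**Figure D1:**
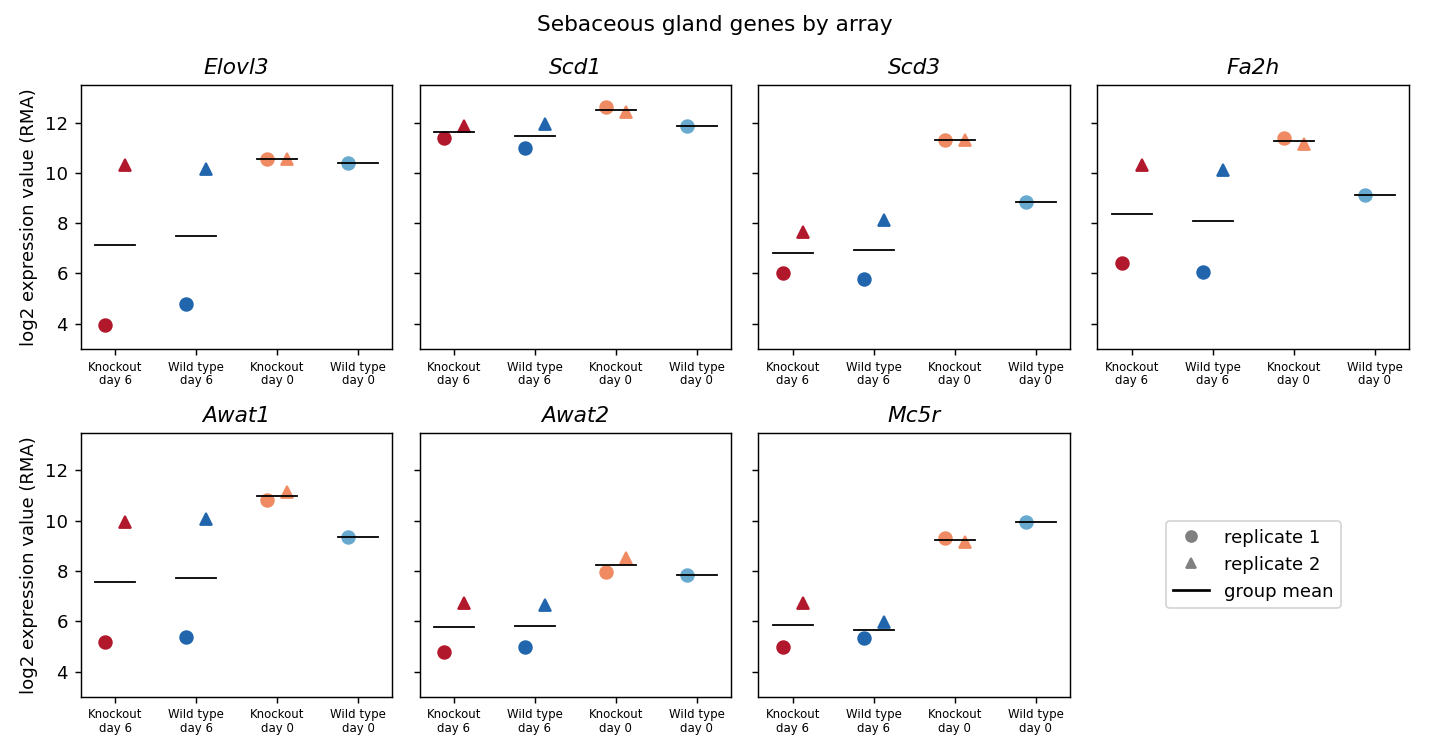
Log2 expression values (RMA, y axis) of the 7 sebaceous gland genes in knockout and wild type at day 6 and at day 0. Circles are replicate 1, triangles replicate 2 and lines group means; at day 6 every circle lies below its triangle, by up to 6.37 log2 units for Elovl3 in knockout.

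Of the 7 genes, 3 fell and 0 rose between day 0 and day 6 over both genotypes, where 5.62% of all genes fell. The members' median difference was -2.71, against 0.06 over all genes. In 4 of 7 members (Elovl3, Scd3, Awat2 and Mc5r) all day 6 arrays lay below all day 0 arrays, and this held for 9.66% of all genes. Mc5r passed the test under each of 15 alternatives, with adjusted p between 0.00158 and 0.0227 (limma). Scd3 passed under 8 of 15 (0.0057 to 0.125) and Awat2 under 7 of 15 (0.00852 to 0.129). Scd1, which did not pass in the fit of all arrays, passed under 3 of 15 (0.0335 to 0.38), all of which left out or set apart wild-type arrays. The Scd3 difference was -4.48 (22.2-fold) without the wild-type day 0 array and -2.79 without knockout day 6 replicate 1. The members' median difference was -1.58 without knockout day 6 replicate 1 and -3.60 without knockout day 6 replicate 2. It was -2.05 without wild-type day 6 replicate 1 and -3.61 without wild-type day 6 replicate 2. Without knockout day 0 replicate 1 or 2 it was -2.61 or -2.44. The count of members called with an array left out is given further below, beside the calls over all genes.

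Within knockout, both day 6 arrays lay below both day 0 arrays in all 7 members, as they did in 25.2% of all genes. Scd3 and Mc5r passed the test. Scd3 was 22.2-fold lower (-4.48 ± 0.79, SE; limma adjusted p = 0.0109) and Mc5r 10.3-fold lower (-3.37 ± 0.53, SE; limma adjusted p = 0.00716). These are 2 of 7 members, where 9.07% of all genes fell, and the members' median was -3.37, against 0.10 over all genes. Awat2 differed by -2.47 ± 0.73 (SE; limma adjusted p = 0.0644), and passed under 4 of 16 alternatives (adjusted p from 0.00456 to 0.287). Scd1 differed by -0.88 ± 0.33 (SE; limma adjusted p = 0.131), and passed under 5 of 16 (0.0363 to 0.5). Scd3 was 12.7-fold lower without knockout day 6 replicate 1 (limma adjusted p = 0.0644) and 39.1-fold lower without replicate 2, and Mc5r 5.60-fold and 19.05-fold lower. Without replicate 1 the median of the members was -1.05, and Elovl3 differed by -0.25, Fa2h by -0.96 and Scd1 by -0.64. Without replicate 2 Elovl3 differed by -6.62, Fa2h by -4.86 and Scd1 by -1.12.

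Within wild type, the day 6 arrays are set against 1 day 0 array, whose error is borrowed from the other groups. Mc5r was 19.9-fold lower (-4.32 ± 0.65, SE; limma adjusted p = 0.0116), 1 of 7 members, where 3.61% of all genes fell. The other members had differences between -0.42 (Scd1) and -2.90 (Elovl3), none of which passed. The members' median was -1.92, against 0.0035 over all genes, and -0.22 without wild-type day 6 replicate 1. Without wild-type day 6 replicate 2 instead, Elovl3 differed by -5.59, Scd3 by -3.09 and Scd1 by -0.90. That sets 1 array against 1, both with Xist signal. The hair follicle markers moved with the wild-type day change, as 10 of 10 were lower at day 6 and 9 passed the test. So did Xist signal, which the day 0 array had and 1 of the 2 day 6 arrays had. The part of hair follicle RNA in the result was not tested. A term for Xist signal was run as an alternative, but it was estimated from the 2 wild-type day 6 arrays alone. It cannot separate Xist signal from any other difference between those arrays.

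The day change did not differ between genotypes at the threshold in any member. Differences of the day change, knockout minus wild type, ran from -2.56 ± 1.24 (SE) for Scd3 to 0.95 ± 0.84 (SE) for Mc5r, with the smallest limma adjusted p at 0.362. Of the 7 members 0 passed, where 3.10% of all genes did. An unadjusted p under 0.05 was found in 0 of the 7 and in 3459 of all 19937 genes (limma).

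Knockout and wild type at day 6 were close in mean, while arrays within each genotype were far apart. Of the 7 members, 0 passed (limma), and 0 had an unadjusted p under 0.05. The share of all genes that passed was 0%, and 1182 of them had an unadjusted p under 0.05. Even Iqgap1, the targeted gene, did not pass (-1.73 ± 0.20, SE; limma adjusted p = 0.5035). A count of 0 passing here therefore says little. The members' differences, knockout minus wild type, lay between -0.37 ± 2.26 (SE) for Elovl3 and 0.27 ± 1.53 (SE) for Fa2h. In all 7 members the knockout and wild-type arrays of day 6 overlapped. The share of all genes that overlapped was not counted, so this is not read as likeness between genotypes. With errors of this size, differences between genotypes of several fold in Elovl3, Awat1 or Fa2h were not detectable. Leaving out 1 array at a time moved the Elovl3 difference between -3.55 (without knockout replicate 2) and 2.82 (without knockout replicate 1).

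At day 0, knockout minus wild type was positive in 6 of 7 members, with 2.45 ± 0.96 (SE) for Scd3 and 2.15 ± 1.87 (SE) for Fa2h, and -0.74 ± 0.65 (SE) for Mc5r. Of the 7 members 0 passed (limma, smallest adjusted p = 0.141), where 14.4% of all genes did. An unadjusted p under 0.05 was found in 1 member, Scd3, and in 6095 of all 19937 genes (limma). The wild-type group is 1 array with Xist signal and with hair follicle markers 1.72 to 7.40 log2 units above the knockout mean. Genotype, Xist signal and hair follicle RNA cannot be told apart at day 0.

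**Figure D2:**
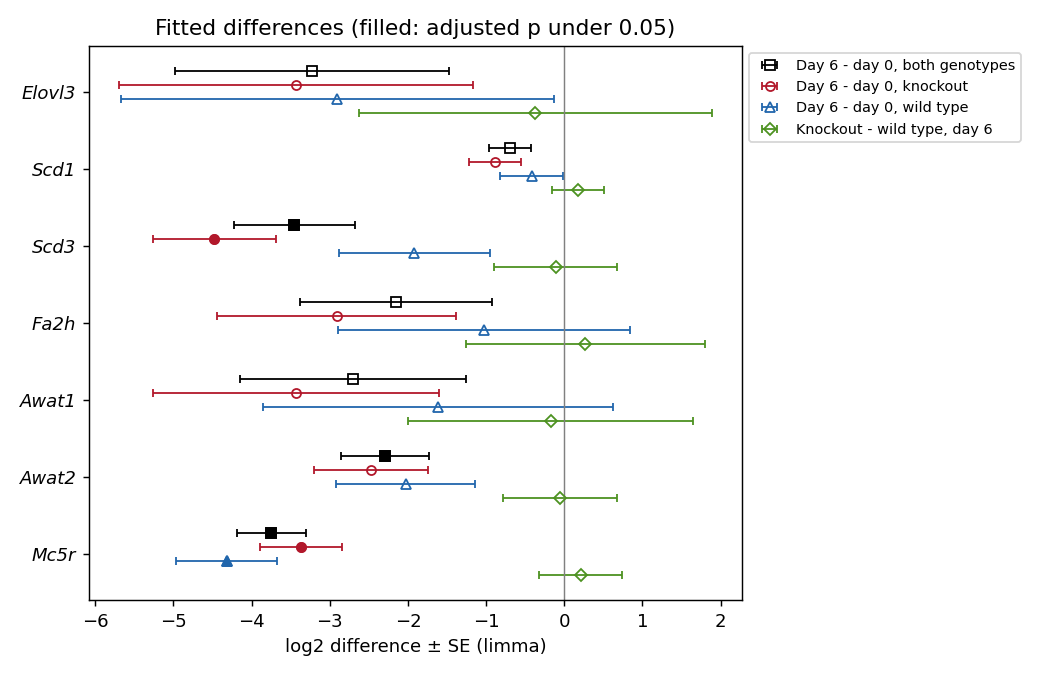
Fitted log2 differences with standard errors (x axis) of the 7 genes for day 6 minus day 0 over both genotypes, in knockout and in wild type, and for knockout minus wild type at day 6. Filled symbols passed an adjusted p of 0.05: Scd3, Awat2 and Mc5r over both genotypes, Scd3 and Mc5r in knockout and Mc5r in wild type.

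The split between the day 6 arrays of a genotype ran the same way in both genotypes. Replicate 2 exceeded replicate 1 by 6.37 log2 units in knockout and 5.37 in wild type for Elovl3, by 4.77 and 4.70 for Awat1 and by 3.89 and 4.03 for Fa2h. The gaps were smaller for Scd3 (1.63 in knockout and 2.34 in wild type), Awat2 (1.94 and 1.68), Mc5r (1.77 and 0.61) and Scd1 (0.48 and 0.97). A gap of more than 1 log2 unit in this direction was found in 6 of 7 members in knockout, where 1.45% of all genes had one, and in 5 of 7 in wild type, where 2.13% had one. Both gaps exceeded 1 in 59 genes, 0.296% of all genes, and 5 of the 59 were members. The 59 are 20.4% of the 289 genes with such a gap in knockout and 13.9% of the 424 in wild type. Ranked by the smaller of the 2 gaps, Elovl3 was 1st, Awat1 the second and Fa2h the fifth of all genes, with Cyp2g1 and Tlcd4 between them (names taken after their values were seen). The 2 knockout day 0 arrays differed by at most 0.57 in any member (Awat2). With 1 array on each side, these gaps have no test, and the shared replicate number was not stated to mark a shared mouse, batch or day.

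The low arrays included 1 with Xist signal (wild type, 10.30) and 1 without it (knockout, 4.03). The mean of the 7 genes was 6.10 and 9.08 in knockout at day 6, 6.19 and 9.003 in wild type at day 6, 10.56 and 10.61 in knockout at day 0 and 9.63 in wild type at day 0. Over the same arrays the mean of 9 adipocyte markers was 5.95 and 6.78 in knockout at day 6, 6.52 and 6.13 in wild type at day 6, 9.66 and 9.12 in knockout at day 0 and 8.69 in wild type at day 0. The adipocyte mean was thus higher in replicate 2 in knockout and lower in replicate 2 in wild type. Of the 9 markers, 4 had gaps above 1 in knockout (Adipoq, Retn, Pck1 and Aqp7, from 1.20 to 1.82) and 0 in wild type. Other lists were higher in replicate 2 in both genotypes, by less than the sebaceous genes. The mean of 9 muscle markers was 8.42 and 9.03 in knockout at day 6 and 8.01 and 8.82 in wild type at day 6, with Myh4, a fast muscle myosin, above 1 in both (2.29 in knockout and 1.34 in wild type). The mean of 23 other lipid synthesis enzymes was 8.87 and 9.48 in knockout and 8.90 and 9.42 in wild type, and that of 7 keratinocyte markers 11.90 and 12.18 in knockout and 11.30 and 12.06 in wild type. The part of muscle or other RNA in the split was not tested.

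**Figure D3:**
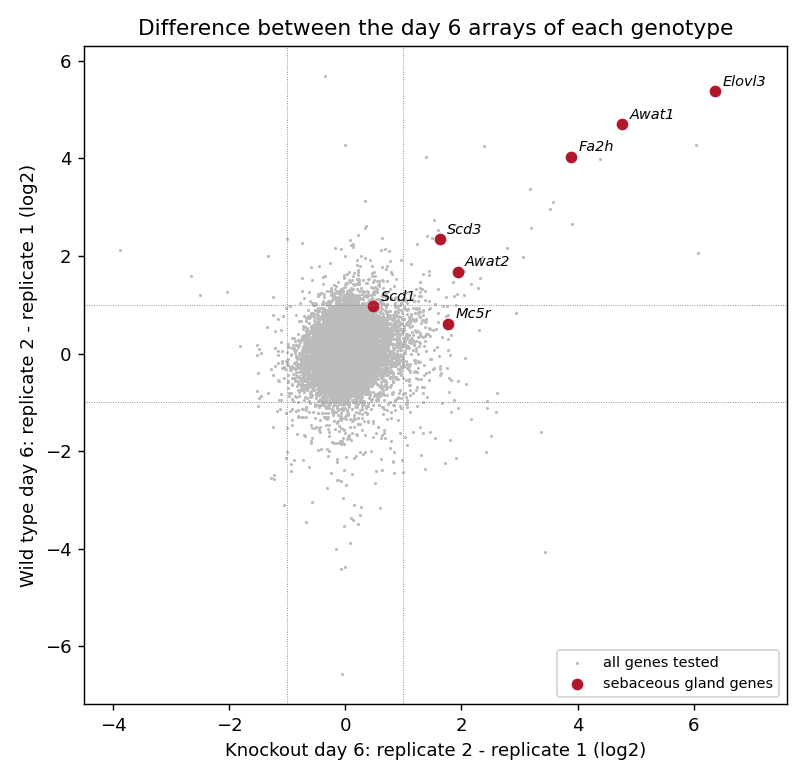
Replicate 2 minus replicate 1 at day 6 in log2 units, in knockout (x axis) and wild type (y axis), for 19937 genes (grey) and the 7 sebaceous gland genes (red). Dotted lines mark 1 log2 unit; 5 of the 7 genes lie beyond it on both axes, Elovl3 farthest out.

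The members varied together over the 7 arrays, as a description only, since all share the day groups. Pairwise Pearson r ran from 0.69 (Mc5r and Fa2h) to 0.99 (Awat1 and Fa2h). Each gene's r with the mean of the other members lay between 0.80 (Mc5r) and 0.97 (Awat2). Mc5r was thus the least alike. At day 0 it was the only member with a wild-type value above both knockout values. Its day 6 gaps (1.77 in knockout and 0.61 in wild type) were also below those of Elovl3, Awat1 and Fa2h.

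Likeness was ranked without genes named as predicted genes, clones, pseudogenes or small RNAs, and without any symbol that starts with Rn. Of the other genes, 4353 had an SD of at least 0.5 over the 7 arrays. The profile most like the members' mean among these was that of Dgat2l6 (r = 0.99), a gene of the same acyltransferase family as Awat1 and Awat2. Dgat2l6 had 3.83 and 7.36 in knockout at day 6, 4.13 and 7.09 in wild type at day 6, 9.08 and 9.47 in knockout at day 0 and 7.58 in wild type at day 0. The 3.83 was within the range of Xist and Eif2s3y on arrays without their signal (3.55 to 4.03), and 4.13 was close above it. The size of its gaps is therefore not exact. Dgat2l6 lies on chromosome X with 0 protein-coding genes between it and Awat1 and 2 between it and Awat2, per RefSeq (GRCm38.p6). The next genes were H2-DMa, Gfra2, H2-Aa, Retnla, Cers4, Tlcd4 and Trmt1l, with r between 0.96 and 0.98. H2-DMa and H2-Aa encode chains of the antigen presentation machinery, and Cers4 a ceramide synthase. An r above 0.9 was reached by 73 of the 4353 genes (1.68%).

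Other lipid synthesis enzymes did not share one direction. Of 23 measured, 2 rose and 2 fell over both genotypes (median -0.15), where 5.85% of all genes rose and 5.62% fell. Scd2, another desaturase gene of the cluster, rose by 1.73 ± 0.37 (SE; limma adjusted p = 0.031), against the fall of its neighbour Scd3. Scd2 had 12.23 and 12.06 in knockout at day 6, 11.12 and 12.24 in wild type at day 6, 9.82 and 9.87 in knockout at day 0 and 10.80 in wild type at day 0. No day 6 array of Scd2 lay below a day 0 array. Agpat2 rose by 0.80 ± 0.16, while Gpam and Me1 changed by -1.07 ± 0.21 and -0.64 ± 0.13 (SE; limma adjusted p between 0.0254 and 0.0266). Far2, which reduces fatty acids to the alcohols of wax esters, had the members' split (4.83 and 10.91 in knockout at day 6, 8.53 and 10.60 in wild type at day 6, 11.56 and 11.58 in knockout at day 0, 10.76 in wild type at day 0) and was chosen here after its values were seen. Of the 23 enzymes, Far2 and Dgat2l6 were the 2 with replicate gaps above 1 in both genotypes, where 0.296% of all genes had them.

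Of 18 measured sebocyte regulators and duct markers, 1 rose and 3 fell (median -0.41), where 5.85% of all genes rose and 5.62% fell. Prdm1, a repressor found in sebaceous cells and in differentiating keratinocytes, rose by 1.21 ± 0.16 (SE; limma adjusted p = 0.00667). Pparg, the nuclear receptor that drives lipid storage in sebocytes and fat, fell by 1.08 on the log2 scale (-1.08 ± 0.24, SE; limma adjusted p = 0.0351). It had 7.78 and 8.32 in knockout at day 6, 7.71 and 8.43 in wild type at day 6, 9.28 and 9.45 in knockout at day 0 and 8.82 in wild type at day 0. Mgst1, a glutathione transferase, and Lgr6, a receptor of follicle stem cells, changed by -1.06 ± 0.19 and -1.90 ± 0.28 (SE; limma adjusted p = 0.0176 and 0.0104). None of these 18 genes had replicate gaps above 1 in both genotypes, where 0.296% of all genes had them, so this count is near that share. Krt79, a keratin of the sebaceous duct, had 9.31 and 11.25 in knockout at day 6 but 11.80 and 10.69 in wild type at day 6, so its split ran opposite ways (named after its values were seen).

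Of 12 genes of lipid droplets and fatty acid handling, 1 rose and 4 fell (median -0.41), where 5.85% of all genes rose and 5.62% fell. Fabp5, a fatty acid carrier of keratinocytes, rose by 1.14 ± 0.21 (SE; limma adjusted p = 0.0209). Cidec, Lpl and Plin4, which act in fat cells, changed by -3.68 ± 0.60, -1.79 ± 0.30 and -2.03 ± 0.35 (SE; limma adjusted p between 0.0132 and 0.016). None of the 12 had gaps above 1 in both genotypes, where 0.296% of all genes had them, so this count too is near that share.

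Markers of other tissue also fell with day. Over both genotypes 5.62% of all genes fell and 5.85% rose, the shares to set beside the counts below. Of 9 adipocyte markers, 7 fell and 0 rose (median -2.25), with Lep, the fat hormone leptin (-5.81 ± 0.26, SE), Adipoq (-4.80 ± 0.42), Retn (-3.80 ± 0.40) and Plin1 (-3.29 ± 0.37) first by p (limma adjusted p between 0.000188 and 0.00418). Lep had 4.18 and 4.48 in knockout at day 6, 4.33 and 4.32 in wild type at day 6, 10.71 and 10.52 in knockout at day 0 and 9.42 in wild type at day 0. Its day 6 values lay close above the range without signal (3.55 to 4.03), so the size of its fall is not exact. Of 9 skeletal muscle markers 8 fell and 0 rose (median -2.90), with Pvalb (-4.85 ± 0.27, SE), Mylpf (-2.90 ± 0.26), Ckm (-1.60 ± 0.16) and Mylk4 (-5.37 ± 0.54) first by p (limma adjusted p between 0.000401 and 0.0029). Of 4 measured Schwann cell markers 2 fell, Pmp22 and Mbp (-1.22 ± 0.22 and -1.06 ± 0.20, SE; limma adjusted p = 0.0176 and 0.0209). The mean of the muscle list was 8.01 to 9.03 at day 6 and 10.97 to 12.27 at day 0, and that of the Schwann list 7.27 to 7.37 at day 6 and 7.71 to 8.34 at day 0. Scd1 is also a fat cell gene and Fa2h a Schwann cell gene, and the part of these cells in the members' change was not tested. Of 7 keratinocyte markers Krt14 rose by 0.72 ± 0.15 (SE; limma adjusted p = 0.0276) and 0 fell, with list means of 11.30 to 12.18 at day 6 and 11.29 to 12.10 at day 0. Of 10 hair follicle markers 0 passed over both genotypes (limma; median -1.93). An unadjusted p under 0.05 was found in 0 of the 10 and in 5259 of all 19937 genes (limma). Krt27 and Krt28, keratins of the hair root sheath, had the smallest p among them (-2.64 ± 1.18 and -3.15 ± 1.44, SE; limma adjusted p = 0.217 and 0.224). The fit over both genotypes averages unlike changes of these 10 hair follicle markers. Their median change was 0.22 in knockout and -5.68 in wild type, where day 0 is 1 array.

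**Figure D4:**
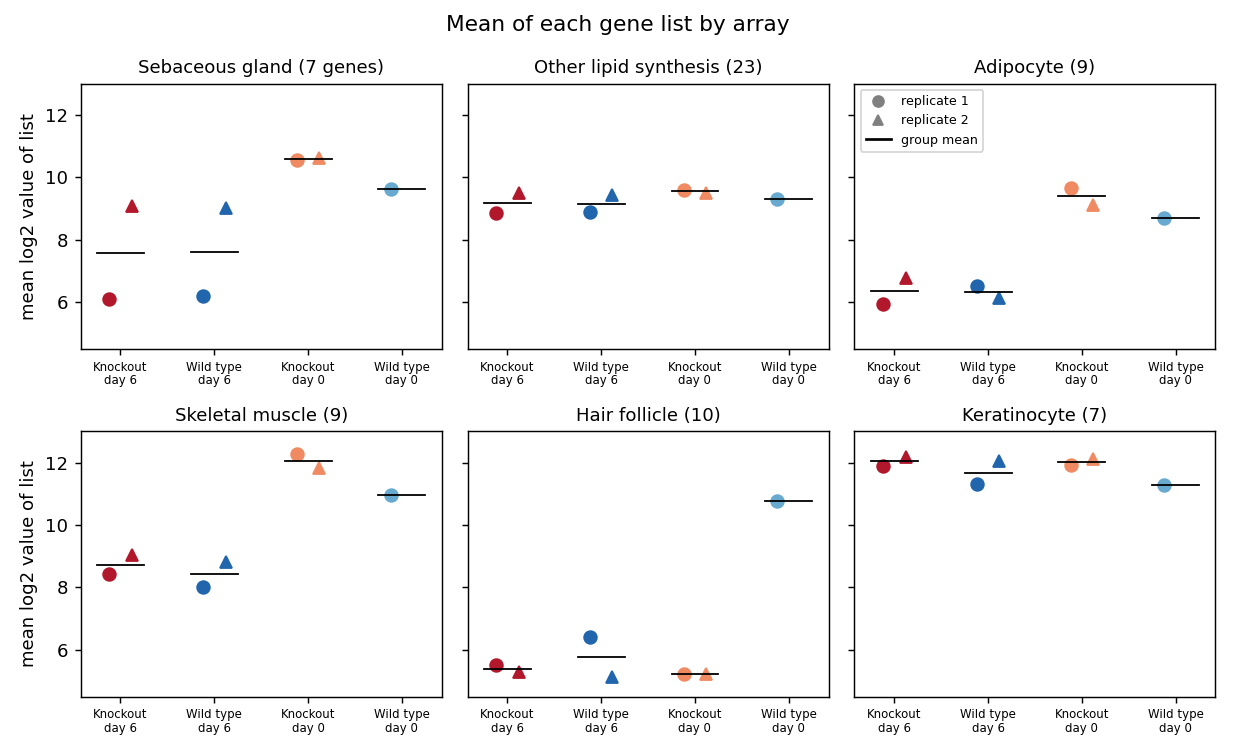
Mean log2 value (y axis) of the sebaceous gland genes and of 5 other gene lists on each array, with circles for replicate 1, triangles for replicate 2 and lines for group means. The sebaceous mean splits at day 6 (6.10 and 9.08 in knockout, 6.19 and 9.003 in wild type), the adipocyte and muscle means are low on all 4 day 6 arrays, and the hair follicle mean is high on the wild-type day 0 array (10.78).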

How the data were processed

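The data were 7 columns of log2 expression values, 1 per array, that the authors deposited. Per the submitters' processing notes they were made with RMA in R 2.11.1, and values of 2.37 to 13.38 fit a log2 scale. Background subtraction and between-array normalisation in RMA compress low values and understate folds of weak genes. The sources used here give no further RMA settings, array batches or genome build. The number of arrays limits precision.

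Of 34760 probe sets, 21640 had 1 gene symbol, 1321 several and 11799 none. Each gene was read from the probe set naming it alone with the highest mean over the 7 arrays (19937 genes, 19855 matched to RefSeq, 0 symbols changed). Tests used lmFit and eBayes of limma 3.58.1 (R 4.3.3), two-sided, with Benjamini-Hochberg adjustment over all 19937 genes and a threshold of 0.05. The day change over both genotypes came from an additive fit (4 residual degrees of freedom) and the other comparisons from a model with a mean for each of the 4 groups (3 residual degrees of freedom). The procedure was tested on simulated data.

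The members and lists were chosen with earlier results of these data known. Named genes from other lists are those past the threshold for the day change over both genotypes, up to 4 with the smallest p, and otherwise the 2 with the smallest p. The 8 genes most like the members' mean by Pearson r were also named, among genes with an SD of at least 0.5 that passed the name filter given above. Alternatives were eBayes with trend and robust options, a filter on low values (mean of at least 6), all probe sets, median centring, the mean of a gene's probe sets, each array left out, the replicate number as a block, a term for or removal of the arrays with Xist signal, and the compared groups alone.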

Additional observations from a re-analysis of the deposited data

How the results depend on the processing

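The direction of the day change over both genotypes and in knockout held for all 7 members under every alternative run, and Mc5r passed in each. The count of members called over both genotypes (3) was 1 with all probe sets tested and 1 to 4 with an array left out; in knockout (2) it was 1 to 3 with an array left out, 1 being without knockout day 6 replicate 1. None of the members passed in a comparison between genotypes under any alternative run, and several signs turned. With an array left out, the wild-type day change ran from -0.90 to 0.066 for Scd1, -3.97 to 0.74 for Awat1 and -3.04 to 0.99 for Fa2h. Knockout minus wild type at day 6 ran from -0.31 to 0.66 (Scd1), -1.28 to 1.06 (Scd3), -0.68 to 1.09 (Mc5r), -2.56 to 2.21 (Awat1), -1.02 to 0.91 (Awat2), -3.55 to 2.82 (Elovl3) and -1.75 to 2.28 (Fa2h). The difference of day changes ran from -0.95 to 0.016 (Scd1), -4.20 to 0.57 (Awat1), -1.41 to 0.52 (Awat2), -3.72 to 2.65 (Elovl3) and -3.90 to 0.13 (Fa2h). With a term for the arrays with Xist signal, or without them, day 6 differences turned to -0.31 (Scd1), -0.10 (Mc5r) and -1.75 (Fa2h). With that term, day 0 differences turned to -0.33 (Scd1), -3.06 (Awat1), -1.29 (Awat2), -5.21 (Elovl3) and -1.88 (Fa2h), and differences of day changes to 0.016 (Scd1), 0.53 (Awat1), 0.39 (Awat2), 2.15 (Elovl3) and 0.13 (Fa2h). The Xist term was estimated from the 2 wild-type day 6 arrays alone, the only group with and without the signal. The day 0 values with that term therefore carry the gap between those 2 arrays (5.37 for Elovl3). They are no separate estimate of a genotype difference. The cause of that gap was not tested. Over all genes, calls numbered 2286 (727 to 4027 over the alternatives) for day over both genotypes, 3251 (1381 to 4027) in knockout, 1418 (1040 to 2209) in wild type, 0 (0 to 43) for genotype at day 6, 2869 (682 to 4328) at day 0 and 619 (143 to 1038) for the difference of day changes.

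Same-numbered replicates deviated together with correlations of 0.09, 0.04 and 0.23 across genes, so the numbers were not taken to pair the arrays. In these groups 6 of 6 arrays correlated best with their own number. With 2 arrays a group this follows once the 3 correlations are positive, so it adds nothing to them. With the replicate block, 3 members were called over both genotypes, 3 in knockout and 2 in wild type (1 without it). Calls over all genes with that block lay within the ranges given above, and their share is not set beside these counts. Awat2 and Elovl3 turned with the block to -0.31 and -1.79 at day 0 and to 0.25 and 1.42 in the difference of day changes. Without the wild-type day 0 array, or without both arrays with Xist signal, the wild-type day change, the day 0 difference and the difference of day changes could not be fitted. With 2 arrays a group or fewer, changes of the 3 members with gaps above 3 log2 units at day 6 were not measurable with useful precision.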
